A study of Mus musculus with 22 samples.

Results

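The transcripts described here encode chaperones, folding enzymes and regulators of the endoplasmic reticulum (ER), measured in samples labelled as mouse aortic endothelial cells: Hspa5, Hsp90b1, Pdia4, Pdia6, Dnajb9, Dnajc3, Sdf2l1, Edem1, Herpud1 and Xbp1. They are 10 of the 11807 genes named on the array, were chosen by name, and are measured by 22 probe sets, of which the one with the highest mean over all arrays stands for each gene. All 10 passed the filter on low values in every comparison. Sdf2l1 lay closest to it, at 0.19 to 1.26 log2 units above the 40th percentile of its array, so its differences rest on weak signals.

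RNA of cells scraped from the opened aorta of C57BL/6 mice on chow was measured on 22 Affymetrix arrays in 6 groups. Cells were taken fresh from wild-type mice (n = 6, labelled control normal-lipidemic) and from ApoE -/- mice (n = 4, labelled pre-lesioned hyperlipidemic), both 4 weeks old and untreated. Aortas of wild-type mice were instead kept for 4 h in DMEM with 1% FBS, alone (medium, n = 3) or with a stimulus (n = 3 each). The stimuli were LPS, a bacterial lipopolysaccharide, at 4 ng/mL, oxLDL, oxidized low-density lipoprotein, at 50 µg/mL, and oxPAPC, a mixture of oxidized forms of a phosphatidylcholine that carries palmitate and arachidonate, at 50 µg/mL. The labels give no age for the mice of the incubated aortas and no number of animals per array. The opened vessel was incubated before the cells were scraped off, so the stimuli met the whole aortic wall. The ApoE -/- label names no tissue to which the deletion is limited. Nothing in the labels says that arrays of a group came from separate animals, so a p-value here reflects only how far the arrays of a group spread, which may be technical.

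Proteins that enter the secretory pathway fold in the ER with the help of chaperones, and when unfolded protein builds up, the sensors IRE1, PERK and ATF6 start the unfolded protein response. IRE1 splices the Xbp1 transcript, which then encodes an active transcription factor, ATF6 is cut in the Golgi by the proteases S1P and S2P, and PERK phosphorylates the initiation factor eIF2 alpha, which lowers general translation and raises translation of ATF4. XBP1 and ATF6 drive genes of chaperones and of ER-associated degradation (ERAD), whereas ATF4 drives genes of amino acid supply and of CHOP. In endothelium this response is known to be raised by oxidized lipids and by disturbed flow. Other kinases also phosphorylate eIF2 alpha, so the ATF4 genes are not a readout of the ER alone. Splicing of Xbp1 was not measured here.

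Letters known as the ER stress response element (ERSE), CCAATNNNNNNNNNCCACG, to which ATF6 and XBP1 bind together with NF-Y, occurred in 4 of the 10 promoters, and the shorter ERSE-II, ATTGGNCCACG, in 1. Promoters were the RefSeq windows of build GRCm38.p6 from 250 bases before to 50 after each start, with both strands searched, and all 10 genes matched. The element of each gene is shown because the genes that carry it did not all move the same way. Capitals mark the element and lower case its neighbouring bases, in the direction of the gene.
Hspa5, chr2:34772015-34772053, plus strand: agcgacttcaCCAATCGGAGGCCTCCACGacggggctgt
Pdia6, chr12:17266481-17266519, plus strand: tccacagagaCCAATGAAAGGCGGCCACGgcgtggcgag
Dnajc3, chr14:118937817-118937855, plus strand: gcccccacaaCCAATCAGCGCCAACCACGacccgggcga
Hsp90b1, chr10:86705523-86705666, minus strand: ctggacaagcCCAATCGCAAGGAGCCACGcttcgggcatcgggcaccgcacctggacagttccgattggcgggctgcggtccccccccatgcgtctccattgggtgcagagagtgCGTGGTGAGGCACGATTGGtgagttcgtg
Herpud1, chr8:94386367-94386397, plus strand: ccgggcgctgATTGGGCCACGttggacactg

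The ERSE of Hspa5 spans positions -65 to -47 from the start, that of Pdia6 -98 to -80 and that of Dnajc3 -105 to -87. Hsp90b1 has a pair, at -212 to -194 and, on the opposite strand, at -107 to -89, and the ERSE-II of Herpud1 lies at -52 to -42. Of 32851 promoter windows of this length, 39 (0.119%) held the ERSE and 12 (0.0365%) the ERSE-II. The letters TGACGTGG, an XBP1 binding element, were in no member's window and in 222 windows (0.676%). The single parts CCAAT and CCACG were common, in 37.4% and 32.8% of all windows, and each was in 9 of the 10 members' windows, all but that of Xbp1. The CCAAT and CCACG counts include the copies inside the elements above. These matches describe the sequence only.

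Markers of the labelled cell type were present: 16 of 17 endothelial markers lay above the 40th percentile of the arrays in each of the 6 groups, with only Robo4 below. Smooth muscle markers were also above it (15 of 15 on the array, 13 of 15 in medium), as were 8 or 9 of 9 fibroblast markers. All 7 plasma and B cell markers, a cell type with high levels of ER chaperones, were below it in every group. Arrays within a group correlated at r = 0.977 to 0.991 across genes, each by its chosen probe set. Array medians were nearly equal after quantile normalization, at 5.23 to 5.39, and such a step hides any common shift of the transcriptome. The sources used here do not say whether all 22 arrays were normalized together. The medians were 5.25 to 5.31 in medium and 5.35 to 5.37 in fresh wild-type cells, and the part of this gap in the differences between them was not tested beyond the other scalings given with that comparison. The number of arrays limits the precision of every value.

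**Figure D1:**
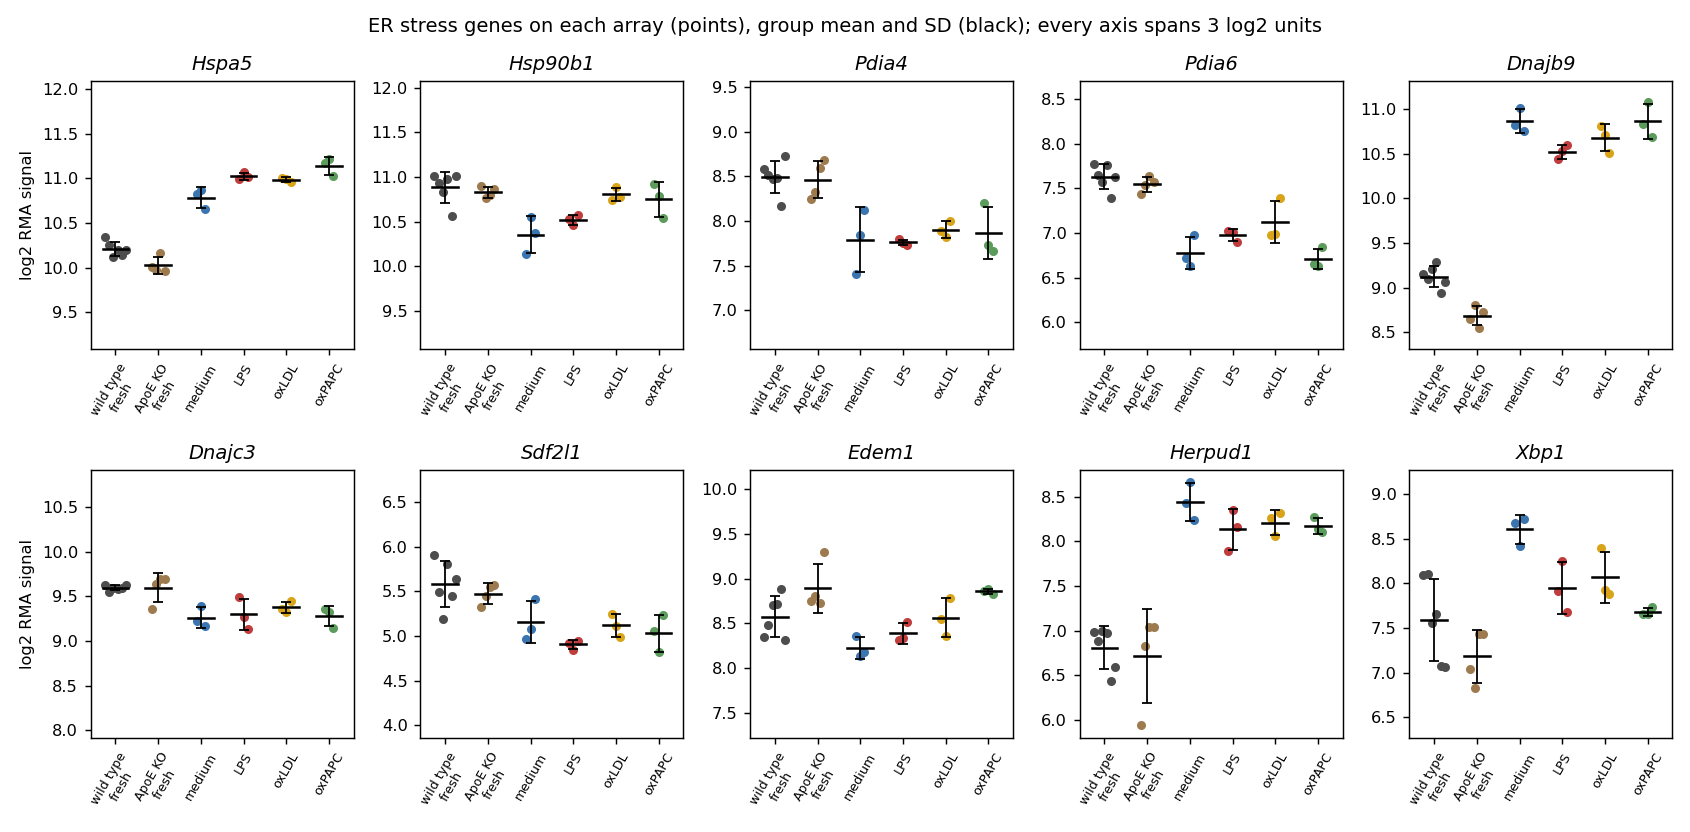
The log2 RMA signal of the 10 genes on each of the 22 arrays (points, y axis, every panel spanning 3 log2 units) in the 6 groups (x axis), with the group mean and SD in black. Dnajb9 and Herpud1 are higher on every incubated than on every fresh array, Pdia6 is lower on all but 1 incubated array than on all fresh arrays, and Xbp1 is highest in medium.

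Keeping the aorta in medium for 4 h, without a stimulus, went with the largest differences of these genes, and they ran in opposite directions. Compared with fresh wild-type cells, 4 of the 10 genes rose (Dnajb9 3.34-fold, Herpud1 3.11-fold, Xbp1 2.02-fold and Hspa5 1.49-fold) and 4 fell (Pdia6 1.81-fold, Pdia4 1.63-fold, Hsp90b1 1.45-fold and Dnajc3 1.26-fold). Of all 7508 genes tested in this comparison, 24.3% rose and 34.4% fell at an adjusted p under 0.05 in limma's moderated test, so changes in both directions were common. The 4 h in medium, the handling that came with it and any difference in the age of the mice cannot be told apart here. The median difference was -0.34 over the 10 members and -0.13 over all genes tested.

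Hspa5 encodes BiP, the Hsp70 of the ER, which holds the sensors inactive until unfolded protein draws it away. Its log2 signal in fresh wild-type cells ran from 10.12 through a median of 10.19 to 10.34, and in medium it was 10.83, 10.87 and 10.65. Every incubated array lay above every fresh array. The rise was 0.58 ± 0.10 (SE, here and for each ± beside a difference) with an adjusted p of 0.000676. The second Hspa5 probe set rose by 0.49 ± 0.11 (adjusted p = 0.0035, in a limma fit of all probe sets).

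Dnajb9 encodes ERdj4, a co-chaperone of BiP that helps to keep IRE1 inactive and feeds misfolded protein into ERAD. It ran from 8.94 through 9.12 to 9.29 in fresh wild-type cells and was 10.82, 11.01 and 10.76 in medium. The gap between the groups was more than 1 log2 unit wide. The rise of 1.74 ± 0.11 ranked 86 of all 7508 genes by the size of the moderated t, the highest rank of the 10 genes. Dnajc3, the co-chaperone P58IPK that also restrains PERK, went the other way: fresh values ran only from 9.55 through 9.59 to 9.63, and those in medium were 9.22, 9.40 and 9.17. Its fall of 0.33 ± 0.10 (adjusted p = 0.0123) was small, yet no array of medium reached the fresh range. All 5 Dnajc3 probe sets fell, by 0.33 to 0.46, each with an adjusted p under 0.05 in the fit of probe sets.

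Herpud1 encodes a membrane protein that assembles the ERAD complex around the ubiquitin ligase HRD1. It ran from 6.43 through 6.93 to 7.00 in fresh wild-type cells and was 8.43, 8.67 and 8.24 in medium. The rise was 1.63 ± 0.16 (adjusted p = 1.26e-05), and the second probe set rose by 1.51 ± 0.21. Edem1 encodes a lectin-like protein that extracts misfolded glycoproteins for ERAD. It ran from 8.31 through 8.60 to 8.89 in fresh cells and was 8.36, 8.14 and 8.18 in medium. These groups overlapped, and the difference of -0.35 ± 0.15 was not called (adjusted p = 0.0621). The second Edem1 probe set, also with overlapping groups, was called at -0.53 ± 0.20 (adjusted p = 0.0437 in the fit of probe sets).

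Xbp1 varied most among the fresh wild-type arrays, from 7.06 through 7.60 to 8.11, and was 8.68, 8.41 and 8.72 in medium. Even the highest fresh array lay below the lowest in medium. The rise was 1.01 ± 0.25 (adjusted p = 0.0047). Its other probe sets rose by 1.31 ± 0.25, 1.18 ± 0.23 and 1.23 ± 0.26, with adjusted p-values of 0.0012 to 0.0018 in the fit of probe sets.

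Of the other chaperones and folding enzymes among the 10 genes, Hsp90b1, Pdia4 and Pdia6 fell and Sdf2l1 was not called. Hsp90b1, the ER Hsp90 known as GRP94, ran from 10.56 through 10.95 to 11.01 in fresh cells and was 10.14, 10.55 and 10.37 in medium, a fall of 0.53 ± 0.14 (adjusted p = 0.0065). The highest array in medium and the lowest fresh array were almost equal, so these groups only just parted. Pdia4 and Pdia6 encode disulfide isomerases, which make and reshuffle disulfide bonds. Pdia4 ran from 8.17 through 8.50 to 8.73 in fresh cells and was 7.41, 7.85 and 8.12 in medium, a fall of 0.70 ± 0.17 (adjusted p = 0.0042). Pdia6 ran from 7.39 through 7.64 to 7.77 in fresh cells and was 6.72, 6.63 and 6.98 in medium, a fall of 0.85 ± 0.12 (adjusted p = 0.000185). Both enzymes were below the fresh range on all 3 arrays of medium, with a wider gap for Pdia6. Its second probe set lay below the level filter. Sdf2l1, a cofactor of ER chaperone complexes, ran from 5.19 through 5.57 to 5.91 in fresh cells and was 4.97, 5.08 and 5.42 in medium. These overlapped, and its difference of -0.43 ± 0.17 was not called (adjusted p = 0.0502).

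Genes with the printed elements were thus found on both sides. Of the 4 genes with an ERSE, Hspa5 rose and Hsp90b1, Pdia6 and Dnajc3 fell, while Herpud1, with the ERSE-II, rose.

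The scale and the cell markers bear on these values. With each array centred on its median, the median over all genes moved from -0.13 to 0.016, and the share of rises among called genes from 41.4% to 53.0% (50.7% with cyclic loess). Dnajc3 was then not called (-0.18, adjusted p = 0.14), and it also lost its call without medium replicate 9 (-0.31, adjusted p = 0.0502). Of the marker lists, 12 of 15 smooth muscle markers fell and 10 of 11 macrophage markers tested rose from fresh to medium. Of 9 fibroblast markers 2 rose and 6 fell, and of 16 endothelial markers 6 rose and 2 fell. The mean over the smooth muscle list was 8.26 to 9.08 on fresh wild-type arrays and 7.23 to 8.10 in medium, that over the fibroblast list 8.36 to 8.73 and 7.29 to 7.94. The macrophage list averaged 4.59 to 5.21 on fresh wild-type arrays, with 8 of 15 markers below the 40th percentile, among them Adgre1, C1qa and Cd68, and 5.93 to 6.12 in medium, with Cd14, Cx3cr1 and Itgam below it. The level filter could admit a marker through the medium arrays alone, so the count of macrophage rises is tilted upwards. With the smooth muscle mean as a covariate 3 members were called: Dnajb9 (1.63, adjusted p = 0.000663), Herpud1 (1.45, adjusted p = 0.0051) and Pdia6 (-0.91, adjusted p = 0.0156). Hspa5 was then at 0.40 (adjusted p = 0.118), Xbp1 at 0.80 (0.205), Hsp90b1 at -0.64 (0.081), Pdia4 at -0.53 (0.212) and Dnajc3 at -0.37 (0.147). With the endothelial mean as the covariate instead, those 8 members kept their calls and Sdf2l1 was called as well (-0.60, adjusted p = 0.0101). The part of other cell types in the results was not tested beyond these covariates. In bulk RNA, fewer cells of a type and less RNA per cell cannot be told apart.

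**Figure D2:**
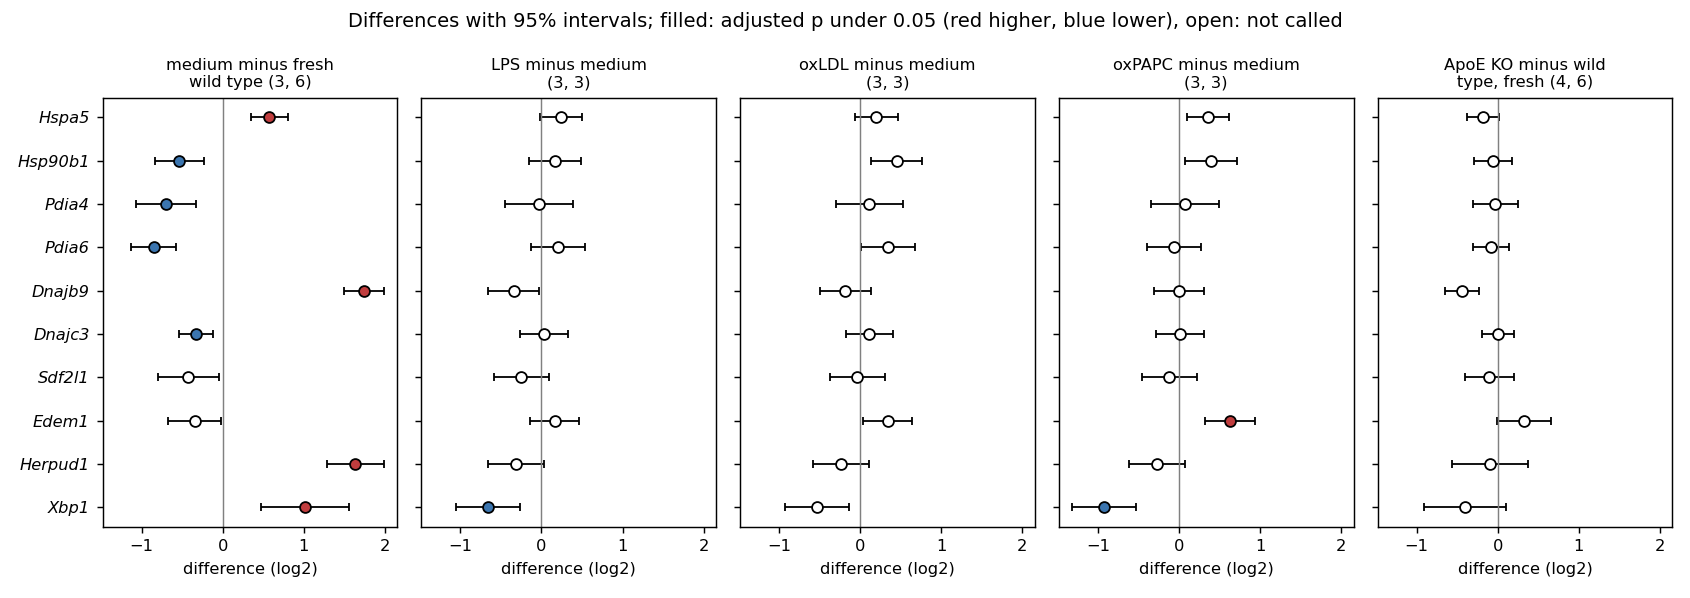
The fitted difference of each gene (x axis, log2) with its 95% interval in 5 comparisons, with the number of arrays in brackets. Filled points passed an adjusted p under 0.05: 8 genes in medium against fresh wild type, Xbp1 with LPS, Xbp1 and Edem1 with oxPAPC, and none with oxLDL or in ApoE -/- cells.

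Other genes of the pathway also moved in both directions. Of 5 sensor and protease genes tested, Ern1, which encodes IRE1 alpha, rose by 2.64 ± 0.21 and Atf6 by 1.61 ± 0.13, whereas Eif2ak3, which encodes PERK, fell by 1.22 ± 0.21 and Mbtps1, which encodes S1P, by 1.13 ± 0.28. Of 18 other ER chaperones and folding enzymes, 1 rose and 10 fell, with a median of -0.51. The one that rose was Ero1a, the oxidase that recharges disulfide isomerases, by 2.05 ± 0.21. Txndc5 (-1.89 ± 0.14) and Pdia5 (-1.23 ± 0.12), both disulfide isomerase relatives, and Cnpy2 (-1.07 ± 0.16) fell most.

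Of 12 ERAD genes tested, 3 rose and 6 fell. All 3 that rose encode ubiquitin-conjugating enzymes: Ube2j2 by 1.00 ± 0.12, Ube2g2 by 0.77 ± 0.13 and Ube2j1 by 0.30 ± 0.11. Those that fell most were Edem2 (-1.54 ± 0.22, with a mean of 3.58 in medium near background), the lectin Erlec1 (-0.87 ± 0.11) and the HRD1 partner Sel1l (-0.85 ± 0.12). Of 22 genes of ER translocation and vesicle transport, 3 rose (Sec23b by 0.56, Sar1b by 0.33, Srprb by 0.32) and 6 fell, led by Kdelr3 (-0.83), Sec61b (-0.70) and Sec24d (-0.64). The ERAD count was 5 in place of 9 with the smooth muscle covariate, and the translocation count 0 in place of 9.

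Of 25 genes of the PERK-ATF4 branch tested, 22 rose and none fell, with a median difference of 2.10. Of the 27 on the array, 20 averaged above the 40th percentile in fresh wild-type cells and 26 in medium. Genes low in fresh cells, such as Chac1 and Asns, thus passed the level filter through the medium arrays, where they were high. This tilts the count and the median towards rises. Chac1, a glutathione-degrading enzyme, rose by 5.80 ± 0.14, Slc7a5, a subunit of an amino acid transporter, by 5.38 ± 0.16, and Asns, asparagine synthetase, by 5.14 ± 0.15. Their fresh means of 3.13, 4.62 and 4.09 lay at or below the 40th percentile, which was 4.58 to 4.71 over all arrays, so the sizes rest on values near background. Of 17 heat shock genes, 10 rose and none fell, with a median of 0.65. They included the co-chaperone Bag3 (2.26 ± 0.22), Hspa9 (1.85 ± 0.11), whose Hsp70 works in mitochondria rather than the cytosol, and Hsp90aa1 (1.61 ± 0.14). A count of 6 heat shock genes was called with the smooth muscle covariate.

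**Figure D3:**
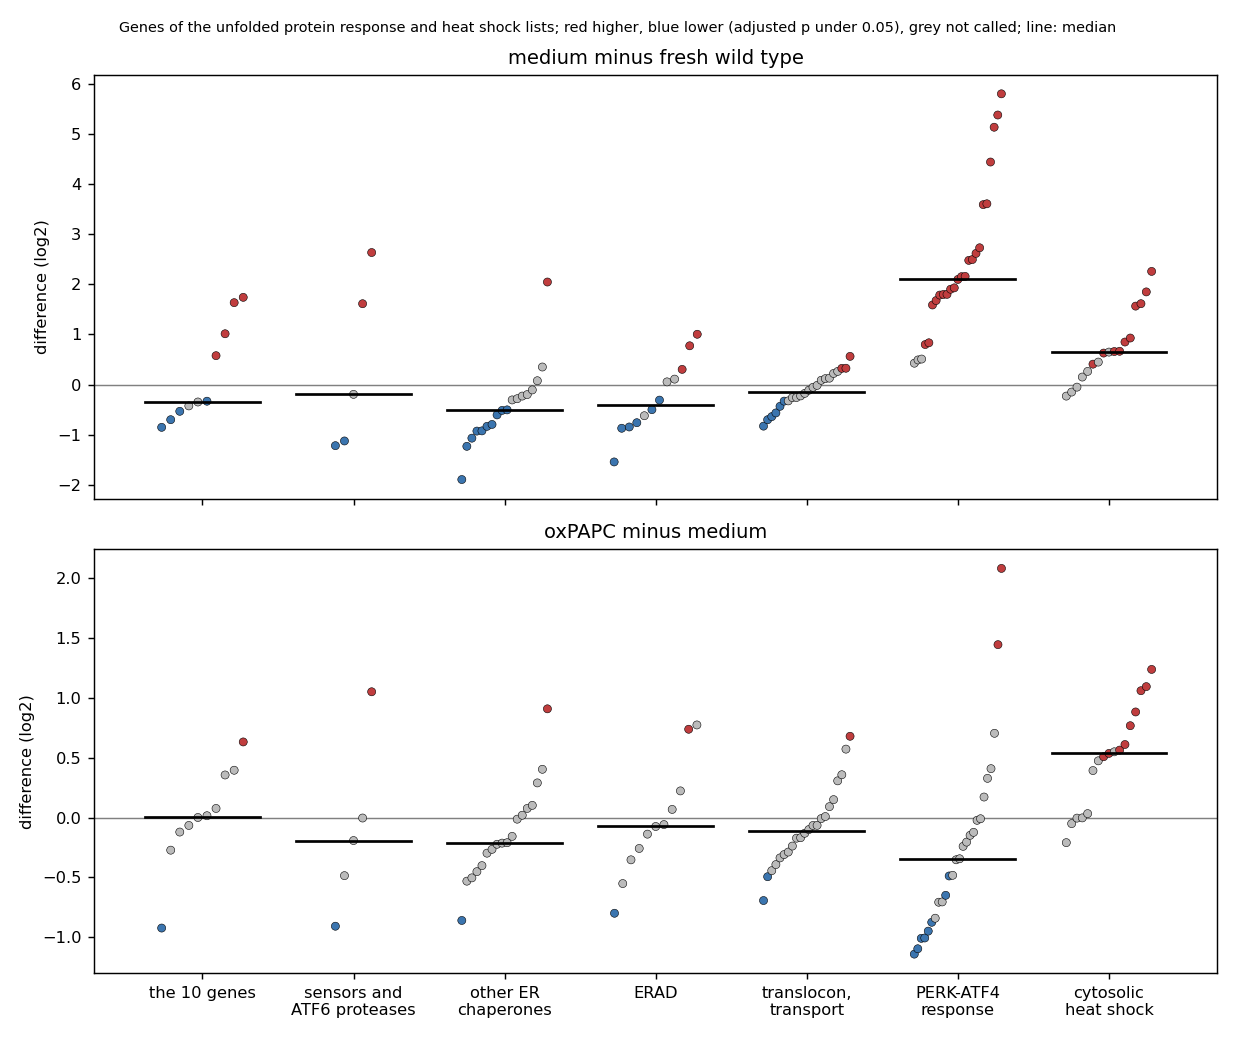
Differences (y axis, log2) of the genes tested in each of 7 lists (x axis, 1 point a gene, ordered by difference within a list) in medium against fresh wild type (above) and oxPAPC against medium (below), with the median as a line. Red and blue points passed an adjusted p under 0.05, and the 2 panels have different y axes. In the upper panel the PERK-ATF4 list has a median of 2.10, while the other ER chaperones lie at -0.51. The PERK-ATF4 list includes genes that passed the level filter through the medium arrays.

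The stimuli were compared with medium, which all 3 comparisons share as the control, over 7550 genes tested in 1 fit of the 12 incubated arrays. Under each stimulus Xbp1 lay below every array of medium on all 4 of its probe sets. Hspa5 lay above every array of medium on the probe set with the higher mean, whereas the second overlapped medium under each stimulus. On the probe sets that stand for them, each of the other members overlapped medium under at least 1 stimulus. How many of all genes lay apart between groups was not counted, here or in the other comparisons, so such separations are description only. The Xbp1 values were 7.91, 8.25 and 7.68 with LPS, 8.39, 7.93 and 7.88 with oxLDL, and 7.65, 7.65 and 7.73 with oxPAPC, against 8.68, 8.41 and 8.72 in medium. No stimulated array reached the lowest of medium, and the oxPAPC arrays lay within the range of fresh wild-type cells. The single highest oxLDL array was almost level with medium.

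With oxPAPC, Xbp1 fell 1.90-fold (-0.92 ± 0.18, adjusted p = 0.0064) and Edem1 rose 1.55-fold (0.63 ± 0.14, adjusted p = 0.0110). These 2 of 10 calls stand beside 8.34% of all genes that rose and 12.9% that fell. Edem1 was 8.86, 8.89 and 8.83 with oxPAPC against 8.36, 8.14 and 8.18 in medium, with no overlap and little spread among the oxPAPC arrays. Its second probe set, which averaged 4.95 with oxPAPC and 5.30 in medium, differed by -0.36 ± 0.19 (adjusted p = 0.198), and the mean of both probe sets by 0.14 (adjusted p = 0.519). The rise of Edem1 therefore rests on 1 probe set. All 4 Xbp1 probe sets fell, by 0.79 to 1.06, with adjusted p-values of 0.0045 to 0.0068 in the fit of probe sets.

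Hspa5 was 11.17, 11.22 and 11.03 with oxPAPC, above all arrays of medium, at a difference of 0.36 ± 0.12 (adjusted p = 0.0527). The second Hspa5 probe set differed by 0.21 ± 0.13 (adjusted p = 0.262). Hsp90b1 was 10.92, 10.79 and 10.54, which overlapped medium, at 0.39 ± 0.15 (adjusted p = 0.0713). Its second probe set did not overlap medium and was called in the fit of probe sets, at 0.51 ± 0.17 (adjusted p = 0.0494). On the first probe sets both genes passed the threshold under other settings, among them median centring (0.0397 and 0.0475), and both did so without oxPAPC replicate 13 (0.0355 and 0.0311), which raised the count from 2 to 4. Dnajb9 was 10.84, 11.07 and 10.69 with oxPAPC, over nearly the range of medium, with a 95% interval of the difference from -0.31 to 0.31. The remaining members differed by -0.27 (Herpud1) to 0.08 (Pdia4), none called.

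oxPAPC arrays also carried less endothelial and more smooth muscle signal than medium. Of 16 endothelial markers 9 fell and none rose (median -0.98), of 15 smooth muscle markers 9 rose and none fell (median 1.00), and of 14 macrophage markers 8 fell. Of 9 fibroblast markers 2 rose and 2 fell. The endothelial list averaged 7.56 to 8.12 with oxPAPC and 8.50 to 8.63 in medium, and the smooth muscle list 8.32 to 8.64 and 7.23 to 8.10. The macrophage list averaged 5.40 to 5.47 with oxPAPC, with Adgre1, C1qa, Cd14 and Itgam below the 40th percentile. In medium Adgre1 and C1qa lay above it, and the smooth muscle markers Des and Pln below it. A marker could pass the level filter through 1 group where it was high. This tilts the macrophage counts towards falls and the smooth muscle counts towards rises, with LPS and oxLDL as well. With the smooth muscle mean as a covariate Xbp1 was at -0.999 and Edem1 at 0.814, neither called (adjusted p = 0.176 and 0.151), and with the endothelial mean they were at -0.93 and 0.59 (adjusted p = 0.308 and 0.408). Their standard errors were 0.23 to 0.36 in place of 0.14 and 0.18, and only 1 gene of all 7550 was called with the first covariate and 18 with the second.

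With LPS, Xbp1 fell 1.58-fold (-0.66 ± 0.18, adjusted p = 0.0437), the 1 call among the 10 genes, where 5.68% of all genes fell. It lost the call when medium replicate 9, 10 or 11 or LPS replicate 3 or 10 was left out (adjusted p = 0.0594 to 0.128) and with cyclic loess (-0.56, adjusted p = 0.0605). All 4 Xbp1 probe sets were called in the fit of probe sets, at -0.66, -0.97, -0.72 and -0.92 (adjusted p = 0.0164 to 0.0464). They read the same arrays and are not separate samples, and that fit was not repeated with arrays left out. Dnajb9 was 10.44, 10.53 and 10.60, below every array of medium, at -0.34 ± 0.14 (adjusted p = 0.148). Hspa5 was 10.99, 11.07 and 11.01, above every array of medium, at 0.24 ± 0.12 (adjusted p = 0.215), while its second probe set overlapped medium at 0.015 ± 0.13 (adjusted p = 0.954). Sdf2l1 was also apart from medium, at -0.25 ± 0.16 (adjusted p = 0.321). The other members differed by -0.31 (Herpud1) to 0.20 (Pdia6), with overlapping groups and no call. Among those above the level filter, other probe sets of 3 of these genes did not overlap medium, without a call: Dnajc3 at -0.39 ± 0.13 (adjusted p = 0.0882) against 0.035 on the first probe set, Herpud1 at -0.40 ± 0.17 and Hsp90b1 at 0.31 ± 0.17. The second Pdia6 probe set, below the filter, was also apart, at 3.94 to 4.15 against 4.16 to 4.32 in medium. The share of all probe sets apart from medium was not counted. Beside this, 4 of 16 endothelial markers fell, 3 of 15 smooth muscle markers rose, and 4 of 14 macrophage and 2 of 9 fibroblast markers fell. The list means were 7.98 to 8.40 for the endothelial, 8.20 to 8.43 for the smooth muscle and 5.19 to 5.87 for the macrophage markers. Xbp1 was at -0.71 with the smooth muscle covariate and at -0.66 with the endothelial one, neither called (adjusted p = 0.174 and 0.136).

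With oxLDL none of the 10 genes was called in limma, where 2.81% of all genes were, although 4 members and 1635 of 7550 genes had an unadjusted p under 0.05. Xbp1 differed by -0.54 ± 0.18 (adjusted p = 0.120). Hsp90b1 was 10.75, 10.88 and 10.78, above every array of medium, at 0.45 ± 0.15 (adjusted p = 0.106). Hspa5 was 11.003, 10.992 and 10.955, also above every array of medium, at 0.20 ± 0.12 (adjusted p = 0.356), with the second probe set at 0.12 ± 0.13 and overlapping. Pdia6 differed by 0.34 ± 0.15 (adjusted p = 0.215) and Edem1 by 0.34 ± 0.14 (adjusted p = 0.191), both with overlapping groups. In the fit of probe sets 2 of the 4 Xbp1 probe sets were called, at -1.04 and -0.86 (adjusted p = 0.0172 and 0.0268), and the mean over its probe sets was called as well (-0.76, adjusted p = 0.033). Of the markers, 1 of 16 endothelial, 1 of 14 macrophage and 2 of 9 fibroblast genes fell, none of these rose and none of 15 smooth muscle genes was called. On the oxLDL arrays these lists averaged 8.21 to 8.51, 5.43 to 5.83, 7.43 to 7.90 and 7.91 to 8.39, in that order. The smooth muscle list had a median difference of 0.63 from medium, against 0.013 over all genes. With its mean as a covariate Hsp90b1 was at 0.29 and Xbp1 at -0.59, neither called (adjusted p = 0.487 and 0.290). The part of these cell types in the LPS, oxLDL and oxPAPC differences was not tested beyond the fits with a marker list's mean as a covariate.

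**Figure D4:**
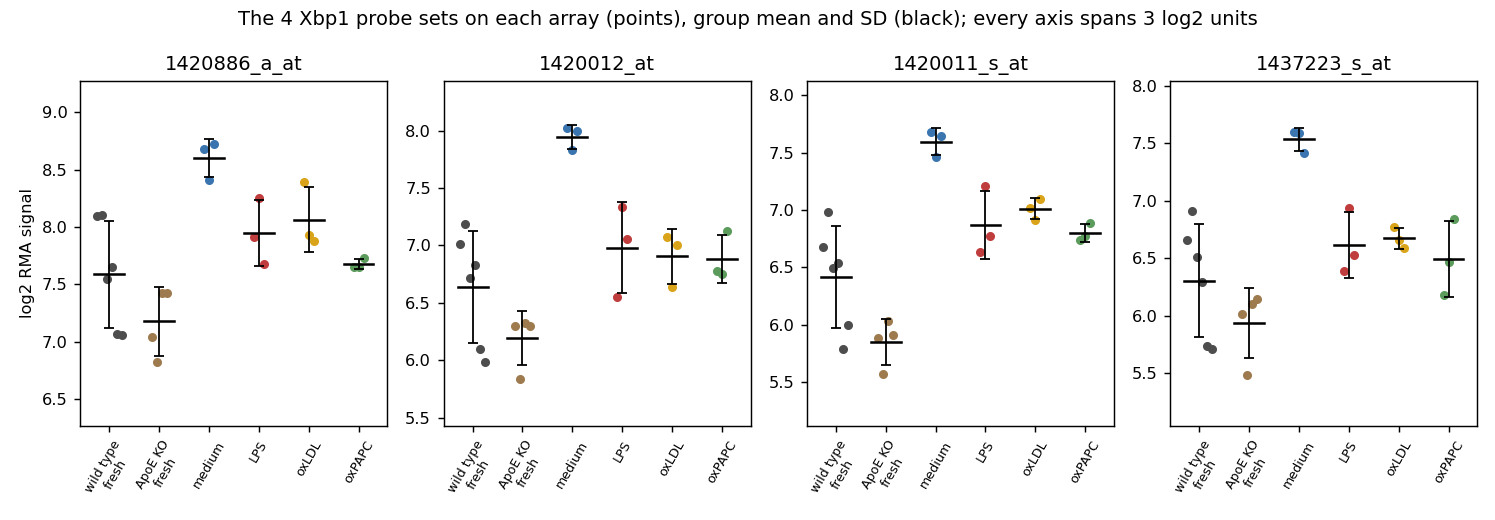
The log2 RMA signal of the 4 Xbp1 probe sets (y axis, every panel spanning 3 log2 units) on each array (points) in the 6 groups (x axis), with group mean and SD in black. In all 4 panels the medium arrays are above every other array, and the fresh wild-type arrays spread over about 1 log2 unit.

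Dnajb9 and Herpud1, which rose most in medium, lay above every fresh array with every stimulus. Herpud1 was 7.90, 8.36 and 8.16 with LPS, 8.26, 8.06 and 8.31 with oxLDL, and 8.28, 8.14 and 8.11 with oxPAPC. None of the 3 differences from medium was called for either gene. On the probe sets that stand for them, Dnajc3, Pdia4 and Pdia6 stayed low. Their oxLDL means, the highest of the 4 incubated groups, were 9.38, 7.90 and 7.12, against 9.60, 8.49 and 7.63 in fresh wild-type cells. Adjacent incubated groups in the order of their means overlapped for each of these 3 genes. Every other Dnajc3 probe set overlapped fresh wild-type cells with oxLDL, one of them at 9.26 to 9.43 against 9.35 to 9.61. Stimulated arrays were not tested against fresh ones.

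Among the other lists, oxPAPC and LPS differed from medium in both directions, and oxLDL in 1 gene. With oxPAPC, 9 of 17 heat shock genes rose and none fell (median 0.54 against -0.045 over all genes), led by Hspb8 (1.24 ± 0.19), Hspa1b (1.09 ± 0.29) and Cryab (1.06 ± 0.30). That count ran from 5 to 10 when single arrays were left out, with 5 without medium replicate 11, oxPAPC replicate 11 or oxPAPC replicate 12, and was 0 with the smooth muscle covariate. Of 26 PERK-ATF4 genes, 2 rose, the cystine transporter Slc7a11 (2.08 ± 0.43) and the lipoprotein receptor Vldlr (1.44 ± 0.32), and 8 fell, led by the tRNA synthetase Aars (-1.14 ± 0.26), the pseudokinase Trib3 (-1.10 ± 0.30) and Ddit3, which encodes CHOP (-1.01 ± 0.23). None of these 10 was called with the smooth muscle covariate. Mbtps1 rose by 1.05 ± 0.25 and Atf6 fell by 0.91 ± 0.17. The remaining lists gave 1 or 2 calls in each direction: Txndc5 (0.91) and Pdia5 (-0.86) among 18 folding genes, Herpud2 (0.74) and Ube2g2 (-0.80) among 11 ERAD genes, and Spcs1 (0.68), Spcs3 (-0.69) and Sec62 (-0.49) among 22 of translocation and transport.

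With LPS, Mbtps1 rose by 1.14 ± 0.25, Derl2, an ERAD channel protein, by 0.79 ± 0.17, and the signal peptidase subunit Spcs1 by 0.96 ± 0.16, while Edem3 (-0.77 ± 0.22) and Ube2g2 (-0.74 ± 0.18) fell. Of 26 PERK-ATF4 genes, Slc7a11 (1.68 ± 0.43) and Psat1 (0.60 ± 0.17) rose and Chac1 (-0.94 ± 0.17), Slc3a2 (-0.60 ± 0.14) and Slc7a5 (-0.60 ± 0.17) fell. None of 18 folding genes or 17 heat shock genes was called with LPS. Mbtps1 was the 1 call among 5 sensor and protease genes, and Spcs1 the 1 call among 22 of translocation and transport. Of 11 ERAD genes 1 rose and 2 fell. These calls stand beside 3.36% of all 7550 genes that rose and 5.68% that fell with LPS. With oxLDL the single call in these lists was Chac1 (-0.79 ± 0.17, adjusted p = 0.0289).

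Between the stimuli none of the 10 genes was called in limma, against 5.07% of all genes for LPS with oxLDL, 8.65% for LPS with oxPAPC and 12.4% for oxPAPC with oxLDL. At an unadjusted p under 0.05 there were 0, 2 and 1 members and 1625, 1906 and 2161 of all 7550 genes. Edem1 was lower with LPS than with oxPAPC by 0.47 without overlap (95% interval of LPS minus oxPAPC -0.78 to -0.16, adjusted p = 0.0586), but its second probe set by only 0.045 with overlap (adjusted p = 0.911). Dnajb9 was lower with LPS than with oxPAPC in every array (-0.66 to -0.029, adjusted p = 0.162). In the fit of probe sets 1 of the 5 Dnajc3 probe sets was called for LPS minus oxLDL (-0.55 ± 0.13, adjusted p = 0.0352), where the first was at -0.079. Pdia6 was lower with oxPAPC than with oxLDL in every array (-0.74 to -0.079, adjusted p = 0.0968). For Xbp1 the intervals were -0.51 to 0.28 for LPS minus oxLDL, -0.13 to 0.66 for LPS minus oxPAPC and -0.78 to 0.0095 for oxPAPC minus oxLDL. These intervals do not show that the stimuli acted alike on Xbp1. Some genes of the other lists were called between the stimuli and are not described here.

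Between fresh ApoE -/- and fresh wild-type cells none of the 10 genes was called in limma, where 0.427% of 7264 genes were called, and 1 member and 1328 genes had an unadjusted p under 0.05. That member was Dnajb9: it was 8.65, 8.80, 8.55 and 8.73 in ApoE -/- cells, below the wild-type range of 8.94 to 9.29 on all 4 arrays. The difference was 1.36-fold (-0.44 ± 0.10, 95% interval -0.65 to -0.23), with an adjusted p of 0.0823. It passed the threshold in a fit over all 22 arrays (0.0413) and with a trended, robust spread (0.0492). With the smooth muscle covariate it was -0.40 (adjusted p = 0.492), and the smooth muscle list averaged 8.92 to 9.14 in ApoE -/- cells against 8.26 to 9.08. None of the 16 endothelial or 15 smooth muscle markers was called in this comparison. The median difference was 0.483 over the smooth muscle list and -0.041 over the endothelial list, against -0.0196 over all genes tested.

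On the probe sets that stand for them, the other members overlapped between the genotypes. Xbp1 was 7.04, 6.82, 7.43 and 7.43 in ApoE -/- cells (-0.41 ± 0.23, adjusted p = 0.373), within the lower part of the wild-type range except for 2 arrays below it. Hspa5 was 10.003, 9.968, 10.165 and 9.959 (-0.18 ± 0.09, adjusted p = 0.296). Edem1 was 8.75, 8.80, 8.72 and 9.30 (0.32 ± 0.15, adjusted p = 0.288), with replicate 6 above all other arrays. Herpud1 was 5.94, 6.83, 7.05 and 7.04 (-0.10 ± 0.21, adjusted p = 0.838), with replicate 3 below all other arrays. For Hsp90b1, Pdia4, Pdia6, Dnajc3 and Sdf2l1 the differences were -0.10 to 0.0036, with adjusted p-values of 0.688 and above. Dnajc3 depended on the probe set: the first differed by 0.0036, whereas 1 of the other 4, at 6.33 to 6.71 in ApoE -/- and 7.11 to 7.34 in wild-type cells, was called in the fit of probe sets (-0.64 ± 0.10, adjusted p = 0.0369). The mean of its probe sets was not called (-0.17, adjusted p = 0.332). In the other lists a single gene was called: Edem3, a mannosidase relative of Edem1 in ERAD, fell by 0.58 ± 0.10 (adjusted p = 0.0417).

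Across the 12 incubated arrays, which share groups, the genes whose log2 values ran most like those of Hspa5 by Pearson's r, of 7549 ranked, were Bsn (0.967), Hikeshi (0.955), Extl2 (0.927), Gjd4 (0.924) and Actb (0.922). None of them is a member. Of the members, Edem1 was nearest at r = 0.709, rank 358, followed by Hsp90b1 at 0.645, rank 618. Dnajc3, Dnajb9 and Pdia4 lay at 0.239, 0.090 and -0.016, and Pdia6, Herpud1, Sdf2l1 and Xbp1 were negative, down to -0.799 for Xbp1. On these probe sets the 10 genes thus did not move as a block on the incubated arrays. The ranking was not repeated with the second Hspa5 probe set, which overlapped medium under each stimulus.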

How the data were processed

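The authors deposited log2 signals, for which the submitters' processing notes name RMA and affy without a version. RMA corrects background, quantile normalizes and summarises each probe set. The genome build is not given in the sources used here. Of 22626 probe sets, 18003 carried 1 gene symbol in the platform annotation, 287 several and 4336 none. Only the first kind was used, and 17977 of them matched RefSeq (GRCm38.p6) for current symbols. A gene entered a fit if it lay above the 40th percentile of all probe sets of its array in as many arrays as the smallest group. It could thus enter through a single group where it was high, which tilts list counts towards higher values in that group.

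Each difference was tested two-sided in R 4.3.3 by limma 3.58.1, with lmFit and eBayes. P-values were adjusted by the Benjamini-Hochberg method over every gene in the fit, with 0.05 as the threshold for a call. The fresh groups, medium with fresh wild type, and the 4 incubated groups were separate fits. The fits were checked on simulated data. In the text, all 10 members are named for medium against fresh wild type and for ApoE -/- against wild type. In the other comparisons some uncalled members are given only as a range or left out. Of each other list, up to 3 called genes per direction with the largest difference are named, except between the stimuli. A gene named for one comparison could be named in others, and so could the 5 genes most like Hspa5. The members and lists were chosen with earlier results of these data known, so their counts are not independent evidence. The 9 alternative settings and single arrays left out are covered in the closing section, and single probe sets beside the results. The fit of probe sets and the list counts under other settings were added after seeing the data.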

Additional observations from a re-analysis of the deposited data

Results flagged for a closer look

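Among 20 sets of 1 gene in 1 group of 4 to 6 arrays, 1 held an array far from the others. Edem1 in ApoE -/- replicate 6 was 9.30, while the other 3 arrays of the group were 8.72 to 8.80. The gap was 0.860 of the whole range of the group. Chance gives about 1 such array in 20 sets.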

How the results depend on the processing

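In all, 1342 values of single members were recomputed. No called difference changed sign. Of the differences called neither before nor after, 81 did, to a size of at most 0.41. The count of members called in medium against fresh wild type was 7 to 10 except with the smooth muscle covariate, where it was 3. For ApoE -/- against wild type it was 1 in place of 0 in the fit over all 22 arrays and with a trended, robust spread (Dnajb9). For LPS against medium it was 0 in place of 1 with cyclic loess, in the fit over all 22 arrays (Xbp1 at -0.66, adjusted p = 0.0855) and with either cell covariate, and 0 to 1 with single arrays left out. For oxLDL against medium it was 1 in place of 0 in the fit over all 22 arrays (Hsp90b1, adjusted p = 0.0457) and with the mean of probe sets (Xbp1). For oxPAPC against medium it was 4 in place of 2 with median centring, in the fit over all 22 arrays and with a trended, robust spread, 0 with either cell covariate, and 2 to 4 with single arrays left out. For LPS against oxPAPC it was 1 in place of 0 with the level filter at the 60th percentile (Edem1, adjusted p = 0.0463) and with a trended, robust spread, and for oxPAPC against oxLDL 1 in the fit over all 22 arrays (Pdia6, adjusted p = 0.0372). With the smooth muscle covariate the other lists gave 5 ERAD, 0 translocation and 6 heat shock genes for medium against fresh wild type, and 0 PERK-ATF4 and 0 heat shock genes for oxPAPC against medium. The heat shock count for oxPAPC ran from 5 to 10 with single arrays left out. The covariates come from markers that differ between groups, and each takes up a degree of freedom. With the smooth muscle covariate some differences of medium from fresh wild type shrank and others grew. Hspa5 went from 0.58 ± 0.10 to 0.40 ± 0.18, and Hsp90b1 from -0.53 ± 0.14 to -0.64 ± 0.25. The cause of these and the other changes was not tested. No paired analysis was possible because the groups compared share fewer than 2 replicate numbers. Detection calls were not used, so the distance from background is known only through the array percentile, and for Sdf2l1 it is small.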
